A study of Drosophila melanogaster with 3 samples.

Results

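The peaks described here are those whose summit lay within 500 bp of a transcription start site (TSS) and whose nearest TSS belonged to a gene that does not encode a protein. They were taken from the conservative peak list of a chromatin immunoprecipitation and sequencing (ChIP-seq) experiment, and 178 of its 4770 peaks (3.73%) met the rule, at 167 genes. Chromatin came from whole embryos, 0 to 24 hours old, of a transgenic Drosophila melanogaster strain that expresses CG11695, a zinc finger protein, joined to the fluorescent tag eGFP, and the precipitation was made with an antibody against GFP. There was 1 group, with 3 biological replicates and no other genotype, age or treatment. Because the embryos were taken whole, all cell types and stages of embryogenesis were mixed, and the number of cells behind a peak cannot be told apart from the strength of binding in each. Neither input chromatin nor a mock precipitation entered the data used, so sites of the protein and sites recovered with any antibody cannot be told apart. Of the 178 peaks, 112 belonged to long non-coding RNA (lncRNA) genes, 27 to antisense RNA (asRNA) genes, 19 to tRNA genes, 8 to microRNA (miRNA) records, 5 to small nucleolar RNA (snoRNA) genes and 4 to small nuclear RNA (snRNA) genes. The other 3 lay at Uhg4, a host gene of snoRNAs, at RNaseMRP:RNA, the RNA component of a ribonuclease that processes ribosomal RNA, and at the pseudogene CR42875.

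Non-coding genes fall into groups that are transcribed in different ways. Long non-coding and antisense RNAs, the primary transcripts of microRNAs and most spliceosomal snRNAs are made by RNA polymerase II from promoters much like those of protein-coding genes, whereas tRNAs, U6 snRNA, 7SK RNA and the RNA of RNase MRP are made by RNA polymerase III, for tRNAs from control elements within the gene itself. Many snoRNAs and microRNAs are cut from longer host transcripts, so the annotated start of such a record is where the processed RNA begins and not where transcription starts.

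The sequences under the summits of the 5 strongest genes outside the right arm of chromosome 2 are shown as examples of strong sites. This choice leaves out lncRNA:CR44339 on that arm, whose peak was stronger than that of lncRNA:CR44149. The window at CR44339 had a GC content of 31.3%. Each covers the summit and 100 bp on either side, on the strand of the gene, from the RefSeq copy of assembly dm6, with the words AAATAT and TATAAA in capitals in either orientation.
lncRNA:CR44619 (chrX:12751290-12751490, plus strand): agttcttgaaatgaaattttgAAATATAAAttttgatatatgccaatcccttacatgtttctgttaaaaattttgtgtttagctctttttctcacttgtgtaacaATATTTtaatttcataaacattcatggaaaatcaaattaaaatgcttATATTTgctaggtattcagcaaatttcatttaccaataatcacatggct
lncRNA:CR31044 (chr3R:29214350-29214550, plus strand): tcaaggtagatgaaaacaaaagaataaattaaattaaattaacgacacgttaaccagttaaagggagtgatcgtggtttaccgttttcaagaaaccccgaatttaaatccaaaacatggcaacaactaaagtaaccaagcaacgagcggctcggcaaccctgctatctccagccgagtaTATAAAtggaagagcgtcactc
lncRNA:CR44149 (chr2L:9568610-9568810, minus strand): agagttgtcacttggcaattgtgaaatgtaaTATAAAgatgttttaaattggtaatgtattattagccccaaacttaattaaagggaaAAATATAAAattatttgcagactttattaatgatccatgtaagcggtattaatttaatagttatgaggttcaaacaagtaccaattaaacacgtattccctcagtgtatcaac
lncRNA:CR46036 (chr3R:17700473-17700673, plus strand): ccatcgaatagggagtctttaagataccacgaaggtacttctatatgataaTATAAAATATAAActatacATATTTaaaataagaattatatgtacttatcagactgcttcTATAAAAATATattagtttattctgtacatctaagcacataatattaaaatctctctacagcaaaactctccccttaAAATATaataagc
asRNA:CR44429 (chrX:15298379-15298579, minus strand): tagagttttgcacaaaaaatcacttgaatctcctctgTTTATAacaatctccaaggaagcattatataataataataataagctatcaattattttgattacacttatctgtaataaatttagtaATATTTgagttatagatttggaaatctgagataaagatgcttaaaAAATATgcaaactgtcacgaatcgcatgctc
The windows at CR44619, CR44149, CR46036 and CR44429 had GC contents of 24.9%, 28.4%, 25.9% and 26.9%, below the median of 35.3% over all 178 peaks, and held 3, 1, 4 and 2 copies of AAATAT. The window at CR31044 had a GC content of 39.8% and no AAATAT, and its TATAAA began 33 bp upstream of the TSS.

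Of the smaller RNAs, 2 windows are shown as examples in which the summit lay within the gene. This was so for 3 of the 19 tRNA peaks and for all 4 snRNA peaks. The tRNA peak shown was weak, at rank 4229 of the 4770 peaks by signal, and overlapped no peak in any replicate's own thresholded list. Capitals mark the annotated gene.
snRNA:U1:95Ca (chr3R:23859513-23859713, minus strand): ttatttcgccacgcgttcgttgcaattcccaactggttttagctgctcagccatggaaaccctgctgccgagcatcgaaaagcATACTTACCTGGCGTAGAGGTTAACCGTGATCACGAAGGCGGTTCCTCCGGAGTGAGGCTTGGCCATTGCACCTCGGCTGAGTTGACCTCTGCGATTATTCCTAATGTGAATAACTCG
tRNA:Asp-GTC-2-1 (chr2L:5240692-5240892, plus strand): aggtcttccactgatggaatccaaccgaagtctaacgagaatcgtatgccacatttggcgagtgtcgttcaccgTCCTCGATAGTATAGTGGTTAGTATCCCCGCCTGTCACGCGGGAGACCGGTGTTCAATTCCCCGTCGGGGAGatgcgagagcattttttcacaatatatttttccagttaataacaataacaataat
At U1:95Ca, 55.6% of the 31-base words of the window occurred elsewhere in the genome, against 12.9% at tRNA:Asp-GTC-2-1 and 0% in each of the windows shown before. The sequences of snRNA genes recur because the genes exist in several copies, so the placement of reads at this summit depends on how reads with several matches were treated, which is not given in the sources used here.

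The strongest non-coding promoter peak lay at lncRNA:CR44619 on the X chromosome, 477 bp upstream of the TSS and 5073 bp from the nearest protein-coding TSS, that of CG4004. Its signal, the authors' own value of unstated scale, was 1463 in the main list, which ranked it 7 of all 4770 peaks. In the replicates' own ranked lists it was 515, 520 and 407, at ranks 16, 5 and 9. The same gene had a further peak 974 bp downstream, at a signal of 727, with 294, 254 and 170 in the replicates. Both peaks of CR44619 were therefore high in each replicate, and no protein-coding promoter lay near either.

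lncRNA:CR31044, which RefSeq names as the primary transcript of mir-279 and mir-996, microRNAs known for their part in sensory organ development, had the next signal, 1022, with 397, 310 and 306 in the replicates. lncRNA:CR44339, whose nearest coding neighbour is the Polycomb group gene Psc at 4212 bp, had 963, with 413, 295 and 268. lncRNA:CR44149 had 837, with 356, 238 and 239, and its summit also lay 180 bp from the TSS of the protein-coding gene brwl, on the opposite strand. These 3 peaks ranked 35, 38 and 63 in the main list. Replicate 1 gave the highest value at each, but its values were higher throughout, with a median of 51.9 over coding promoter peaks against 42.5 and 40.9. lncRNA:CR46036, which lies within osa, a gene for a subunit of a SWI/SNF chromatin remodeller, had 775 and lay 13502 bp from the nearest coding TSS. asRNA:CR44429, antisense within gce, a juvenile hormone receptor gene, had 732, and lncRNA:CR44867, within beat-Ib, of a family of axon guidance genes, had 706. lncRNA:CR31840 had 700 with its summit 10 bp downstream of the TSS, and asRNA:CR45928 had 693, with the start of the translation factor gene eIF6 107 bp away. The tRNA gene tRNA:Tyr-GTA-1-8 followed at 635, with 237, 198 and 185 in the replicates.

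**Figure D1:**
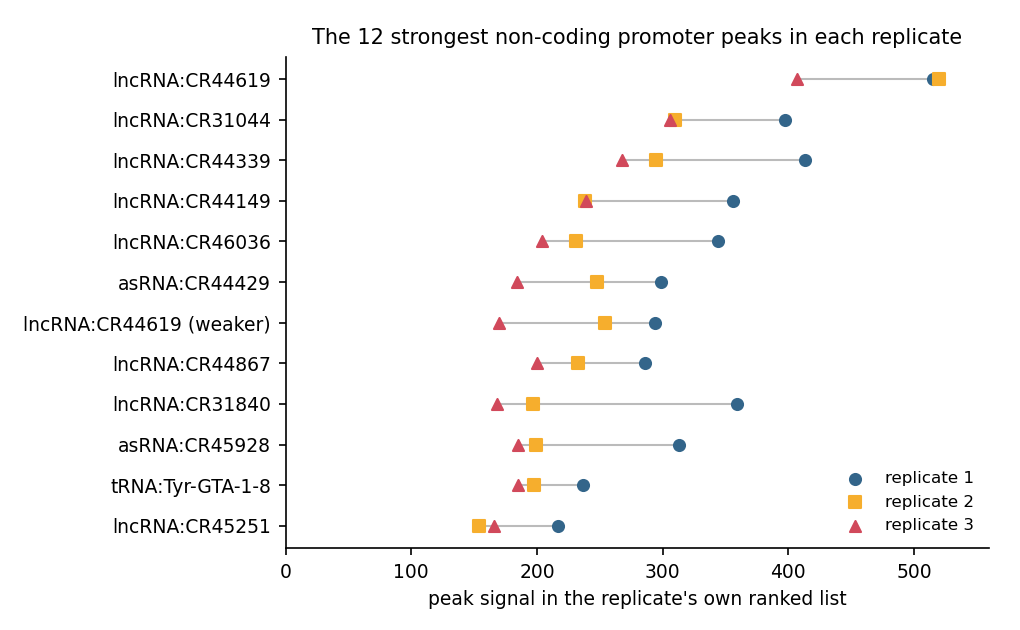
Signal of the 12 strongest non-coding promoter peaks (rows) in the own ranked list of each replicate (horizontal axis, the authors' peak signal), with a grey line from the lowest to the highest replicate. lncRNA:CR44619 reached 407 to 520, and its weaker peak, lncRNA:CR44619 (weaker), 170 to 294.

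The 25 strongest also included peaks at lncRNA:CR45251 (523 and 419), lncRNA:CR45352 (517), lncRNA:CR42657 (511), asRNA:CR43257 (458), lncRNA:CR44676 (426), lncRNA:CR45541 (417) and lncRNA:CR45997 (402). CR42657 lay 683 bp from the start of nej, the gene of the histone acetyltransferase CBP, and CR45997 lay within mbl, a splicing regulator gene. The others were lncRNA:CR44810 (360), CR42875 (340), asRNA:CR45518 (331), asRNA:CR45999 (308), lncRNA:CR44868 (303) and lncRNA:CR45668 (289), whose summit stood 681 bp from the start of the actin gene Act5C. All 25 of these peaks overlapped a peak in the own thresholded list of every replicate, against 36.8% of all main peaks. They were chosen by their high signal in the pooled libraries, so such overlap is largely built in. The share among other main peaks of like rank was not taken.

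By class, lncRNA and asRNA peaks had the higher median signals and the larger shares in the replicates' own lists. The 139 of them had a median signal of 128, and 57 (41%) overlapped a peak in the own lists of all 3 replicates. The 36 peaks at tRNA, miRNA, snoRNA and snRNA genes had a median of 82.3, with 4 (11.1%) in all 3 own lists and 17 (47.2%) in none. Over all 178 the median was 118, from 5.92 to 1463, with 63 (35.4%) in all 3 own lists and 43 (24.2%) in none, which was close to the background of 36.8% over the whole main list and 39.9% over the 1972 peaks at protein-coding promoters. Those 1972 had a median signal of 125. The main list was called on pooled libraries that include each replicate, so overlap with the own lists is partly built in for every group.

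**Figure D2:**
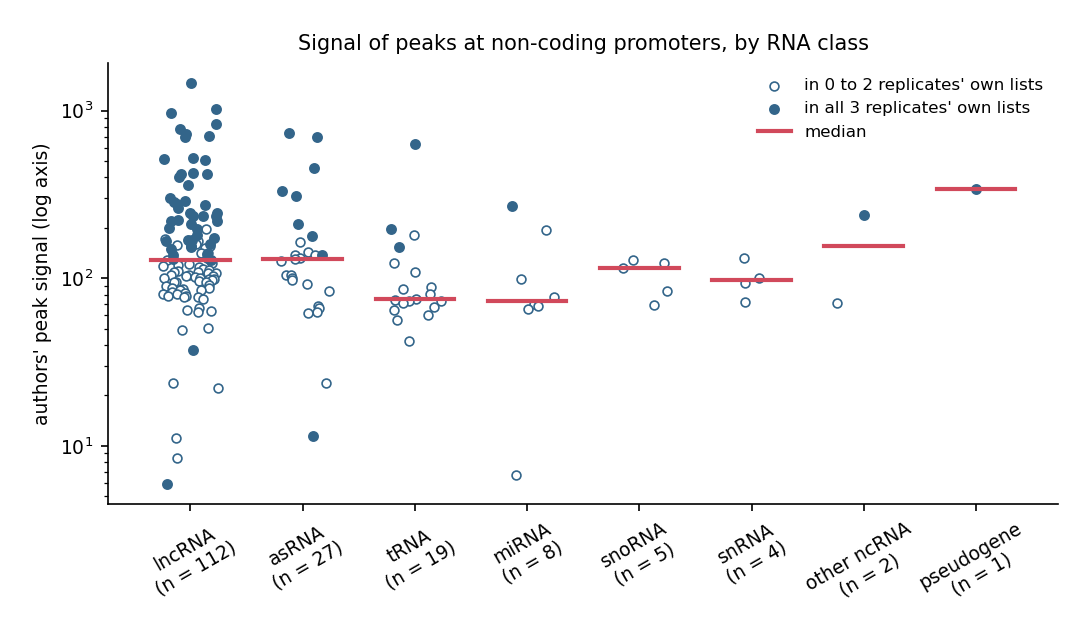
Signal in the main list (vertical log axis, the authors' peak signal) of each non-coding promoter peak, by class of RNA, with the median as a red bar and filled points for peaks in the own lists of all 3 replicates. The lncRNA and asRNA medians (128 and 131) lay above those of tRNA (75) and miRNA (73.5) peaks.

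The lowest signals belonged to records beside a stronger one. Of the 178 peaks, 11 had a stronger record within 250 bp, among them lncRNA:CR43700 at 5.92, mir-9378 at 6.65 and lncRNA:CR43130 at 8.51, and they may be repeats of 1 peak. Without them 167 peaks remained. Such a record takes its overlap with the own lists from the stronger neighbour, and can take its signals in the replicates from it too. Both records of lncRNA:CR45668, for example, have 109, 108 and 64.4. The 11 were kept in the class medians by replicate and in the coefficients between replicates given below.

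The classes also differed in how the replicates ranked them. In each replicate's ranked list, the median log2 signal of lncRNA peaks was 0.10, 0.06 and −0.03 relative to that of protein-coding promoter peaks, and that of asRNA peaks 0.02, −0.01 and 0.06. For tRNA peaks it was −0.63, −1.11 and −0.44, lower in every replicate. Their median rank was 4443, 9645 and 3818 in replicates 1, 2 and 3, whereas that of lncRNA peaks was 2063, 2175 and 2274. Replicate 2 thus placed the tRNA peaks lowest. At tRNA:Ser-CGA-1-4, for example, the signal was 37.7, 6.45 and 44.9. With 3 replicates the exact sign-flip test over replicates, two-sided, cannot go below p = 0.25, which was its value for the tRNA difference of −0.73 ± 0.35 (SD, n = 3). The difference for all 178 peaks was −0.06 ± 0.02 (exact p = 0.25, n = 3). Since the main list ranked replicates 1 and 3 against each other and not replicate 2, a lower value in replicate 2 is partly built in for weak peaks.

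**Figure D3:**
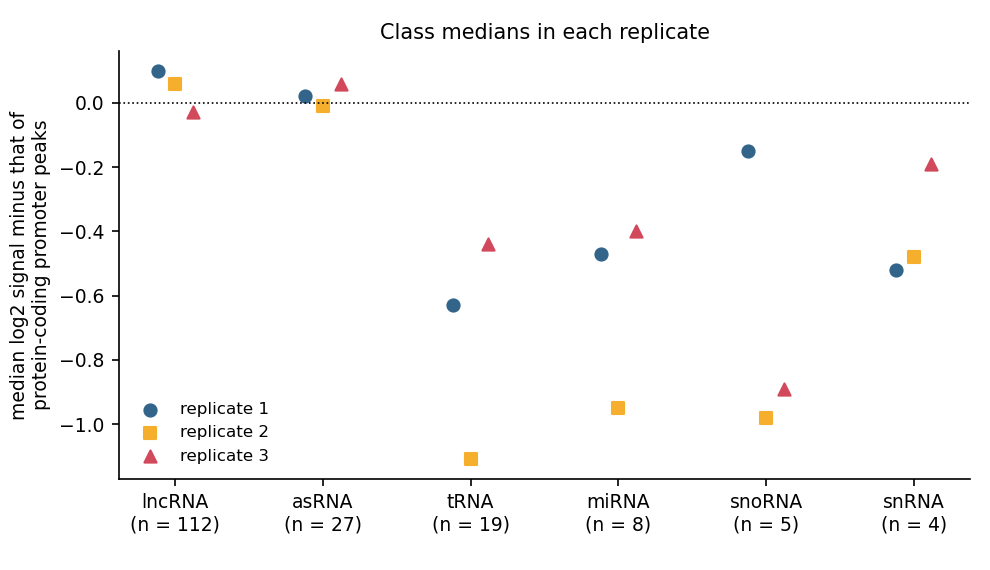
Median log2 signal of each class in each replicate minus that of protein-coding promoter peaks in the same list (vertical axis, 0 is the coding median). The lncRNA and asRNA points lay between −0.03 and 0.10, and all 3 tRNA points lay at or below −0.44.

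Among the lncRNA genes were the primary transcripts of microRNAs. RefSeq gives 24 lncRNA and asRNA genes a name of this kind, and 6 of them (25%) had a peak within 500 bp of a TSS, against a background of 6.30% of the 4219 non-coding genes and 16.2% of the 13945 protein-coding genes. This list was put together after the values had been seen. CR31044 was the strongest, and CR43650, the transcript of mir-8 of the conserved miR-200 family, had a signal of 169 with 61.5, 59.8 and 52.8 in the replicates. CR43651, the transcript of mir-14, known for a part in limiting cell death, had 142 with 62.9, 40.5 and 43.6. All 3 had a record in each replicate, as did the transcripts named next and 174 of all 178 peaks. CR45911, the transcript of mir-13b-1, mir-13a and mir-2c, had 110, CR43314, that of mir-263a, 82.3, and CR43459, that of mir-277 and mir-34, 78.4. The summits lay from 151 bp upstream to 62 bp downstream of the TSS, and none of the 6 had a protein-coding TSS within 500 bp. CR31044 and CR43650 were in the own lists of all 3 replicates, CR43651 in 2, CR43314 and CR43459 in 1, and CR45911 in none.

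The 8 peaks assigned to microRNA records were of another kind. For 7 of them the record lay inside a protein-coding gene on the same strand, so the annotated start is that of a processed hairpin or of a mature arm of it. The strongest, at an arm of mir-9377 within Tis11, a gene for a protein that promotes mRNA decay, had 270, with 100, 78.6 and 92.8 in the replicates. mir-9378 had 193 and mir-4962 had 99.1, and the arms of mir-2282, mir-4980 and mir-9373 had 77.3, 67.9 and 65.6. mir-314, the record outside coding genes, had 69.8 and lay near Muc68D. Only mir-9377 was in all 3 own lists. Of 28 microRNAs with known developmental roles none had a peak in the main list within 500 bp of the hairpin's start, which allows a share of up to 10.7%, above the 4.18% of all 741 microRNA records. Those 741 include mature arms annotated as records of their own, so the units of these shares differ.

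Most tRNA peaks were weak. After tRNA:Tyr-GTA-1-8, the signals were 196 at tRNA:Leu-TAA-2-1, 182 at tRNA:His-GTG-1-3 and 153 at tRNA:Val-CAC-2-5, and these 4 each had a protein-coding TSS within 500 bp, of CG8036, CG13605, CG8490 and Naam. The other 15 had no such neighbour, and their signals ranged from 42 to 123. Of the 19 tRNA peaks, 12 were in no own list and 3 in all. tRNA:Tyr-GTA-1-8, Leu-TAA-2-1 and Val-CAC-2-5 were those 3, so the tRNA peaks that repeated in all own lists all stood beside a coding promoter. The genes often lay in clusters: for 13 of the 19 at least 2 tRNA genes, the member included, lay within 1000 bp of the summit, and 10 had a copy of identical sequence elsewhere. These counts were not made over all 290 tRNA genes, so they do not set the 19 apart from other tRNA genes. In 9 of the 19 windows some 31-base words recurred in the genome, against 1 of the 139 windows at lncRNA and asRNA genes and 1.01% of those at protein-coding promoters. Whether placement of reads with several matches moved the tRNA signals was not tested.

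Summits at snRNA genes lay on the genes. The summit was 17, 11 and 15 bp downstream of the start at U1:95Ca, U2:34ABb and U6:96Ac, which encode RNAs of the spliceosome, and 316 bp downstream at 7SKa, whose RNA holds the elongation factor P-TEFb in an inactive complex. U1:95Ca had a signal of 133, with 46.8, 35 and 51.8 in the replicates. U2:34ABb had 94, with 39.6, 26.6 and 41.8, and U6:96Ac 72.5, with 31.5, 19.8 and 28.1. 7SKa had 100, with 33.1, 36.8 and 30.9. U1:95Ca ranked 2088 in the main list and the other 3 lower, from 2996 to 4055, and 3 of the 4 genes have copies of identical sequence. Of 25 spliceosomal snRNA genes listed apart from U6, 2 had a peak, U1:95Ca and U2:34ABb, beside 6.30% of all non-coding genes. Of 105 genes for RNA polymerase III transcripts outside tRNA, 96 are copies of 5S rRNA, of which 0 had a peak. A peak at such copies also depends on how reads with several matches were treated, which is not given. Of the other 9, 3 had 1, namely 7SKa, U6:96Ac and RNaseMRP:RNA (71.2, with 24.8, 16.9 and 41.7). The snoRNA peaks were at abba-a (129), Or-CD13 (123), Psi18S-176 (115) and Psi28S-3342 (69.6) and at an unnamed record on 2R (84.2), each in 1 or 2 own lists and none in 3. The host gene Uhg4 had 239 with its summit 55 bp upstream of the TSS, and was in all 3.

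Of 12 lncRNA genes with well-known functions found in the annotation, 2 had a peak in the main list, where 6.43% of all lncRNA genes did. roX1, an RNA of the complex that raises transcription of the male X chromosome, had a peak 102 bp downstream of a TSS with a signal of 50.3, which ranked 4403 of 4770. It was 30 in replicate 1 and 22.7 in replicate 3, with no overlapping record in replicate 2, where a record within 500 bp of a TSS had 18.9, and it stood in no own list. roX2 had none. Of the 10 other listed lncRNA genes found in the annotation, among them bxd, iab8, flam, yar and let7C, CR31044 alone had a peak in the main list. Hsromega, the heat shock lncRNA that organises nuclear omega speckles, was absent from it although its peak had a signal of 289 and the highest −log10 of the irreproducible discovery rate (IDR) of the ranked list, 5. Within 500 bp of its TSSs the signal in the replicates was 86.1, 112 and 95.3. It was among 122 records past the threshold in the ranked list that the thresholded list leaves out, of which 80 lay on 3R and 11 at non-coding promoters. asRNA:CR45908 (216) and lncRNA:CR30055 (206) were also among those 11. The step that left them out is not given in the sources used here.

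A smaller share of summits lay upstream of the TSS at non-coding than at protein-coding promoters. They lay upstream in 101 of 178 cases (56.7%), at a median of 58.5 bp upstream, against 74% and 114 bp for the 1972 coding peaks. The commonest 100 bp for both was 100 to 200 bp upstream, with 18% of non-coding and 29% of coding summits. Beyond 300 bp downstream the shares were 6.74% and 8.43% per 100 bp against 2.08% and 2.03%. In the own lists, 54.3%, 59.4% and 58.3% of summits at non-coding promoters were upstream, against 79.7%, 81.8% and 78.9% at coding promoters. The difference of −22.8 ± 2.41 percentage points (SD, n = 3) had the same sign in all 3 replicates (exact sign-flip test, p = 0.25, the smallest possible). Nearest to the 500 bp limit, peaks of CR44619 (497 bp, signal 727) and CR44507 (500 bp, 80.8) lay inside, and those of CR42736 (505 bp, 166) and CR44363 (505 bp, 450) outside.

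**Figure D4:**
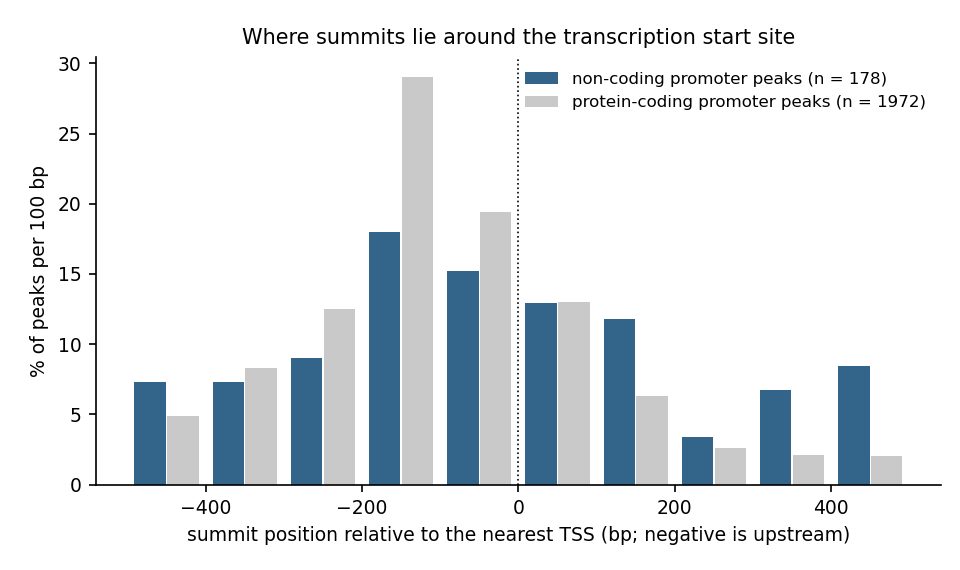
Position of summits relative to the nearest TSS (horizontal axis, bp, negative is upstream) as the percentage of peaks in each 100 bp (vertical axis), for 178 non-coding and 1972 protein-coding promoter peaks. The coding peaks reach 29% at 100 to 200 bp upstream, where the non-coding peaks reach 18%.

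Most of the peaks had no protein-coding promoter beside them, which is partly built in. A summit nearer to a coding TSS, or tied with one, went to the coding gene, so such shared promoters were left out beforehand. Of 266 non-coding genes with a main summit within 500 bp of a TSS, 167 were the nearest gene of a peak described here. In 42 cases (23.6%) a protein-coding TSS also lay within 500 bp of the summit. In 28 of these the genes pointed away from each other, with a median of 290 bp between their starts, in 11 they overlapped on opposite strands and in 3 they ran in the same direction. Such sharing was found for 16 of 27 asRNA peaks, such as CR45928 at eIF6 and CR43257 at Reg-5, but for 18 of 112 lncRNA peaks. The annotation itself differs in this way. With or without a peak, 294 of 503 asRNA genes and 435 of 1944 lncRNA genes had a coding TSS within 1000 bp of their own. The contrast between the classes is therefore not particular to the peaks. The 42 had a median signal of 108 with 38.1% in all 3 own lists, and the other 136 had 120 with 34.6%. For tRNA peaks the median was 189 with and 73.2 without such a neighbour. For 87 peaks (48.9%) the nearest coding TSS was over 2000 bp away, and for 20 over 10000 bp. The summit lay inside a protein-coding gene for 68 peaks (38.2%), such as those of CR46036 in osa and CR44867 in beat-Ib.

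Counted by gene, 266 of 4219 non-coding genes had a summit of any main peak within 500 bp of a TSS, 6.30% against 16.2% of protein-coding genes. A summit at any start of a gene counted, and coding genes have more starts each. There were 19253 starts for 13945 coding genes and 4355 for the 4219 non-coding genes. How much of the difference follows from this was not tested. From each replicate's own list the shares came to 3.52% ± 0.484 for non-coding and 11.1% ± 1.21 for coding genes (SD, n = 3). By class the share was 6.43% of 1944 lncRNA genes, 9.15% of 503 asRNA genes, 11.7% of 290 tRNA genes, 4.18% of 741 miRNA records, 6.32% of 269 snoRNA genes and 12.5% of 32 snRNA genes (95% exact binomial interval 3.51% to 29%). None of 99 rRNA genes had a peak (interval 0% to 3.66%). Most of these are the 96 copies of 5S rRNA, which are not independent of each other. How reads with several matches were placed there is not given, so the 0 sets no firm limit on binding. The share was higher where a coding TSS lay nearby. Of non-coding genes with a coding TSS within 1000 bp of their own, 11.6% had a peak (interval 9.83% to 13.6%), against 4.23% of the 3029 without (3.54% to 5%). For asRNA genes the values were 14.6% and 1.44%, for tRNA genes 16.5% and 9.95%, and for lncRNA genes 9.66% and 5.5%. A peak at a coding promoter that also lies near a non-coding start counts here, although it is not among the 178. For tRNA genes the own lists gave 3.1%, 2.07% and 6.55%, so replicate 3 held the most. The binomial intervals cover counting error only.

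**Figure D5:**
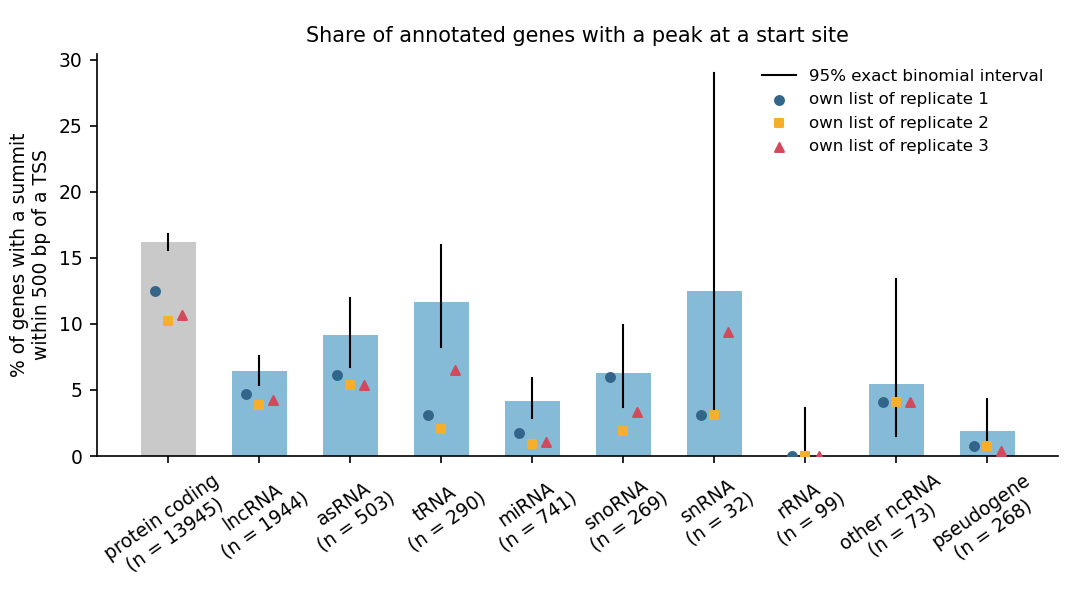
Percentage of annotated genes of each class with a main-list summit within 500 bp of a TSS (bars), its 95% exact binomial interval (lines) and the same share in the own list of each replicate (points). The coding bar stands at 16.2% and the lncRNA bar at 6.43%, and the 3 tRNA points lie between 2.07% and 6.55%.

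Within 100 bp of the summits, motifs of housekeeping promoters were in fewer windows at non-coding than at coding promoters, with shares near those at peaks away from promoters. Each motif was searched on both strands as its letters are given here. The DNA replication-related element TATCGATA was in 0 of 178 windows, which allows a share of up to 1.69%, against 3.4% of the 1972 coding windows and 0.382% of windows at peaks away from promoters. GTCACACT, the core of motif 1 of Drosophila promoters, was in 0 of 178 against 2.43% and 0.305%. CGATA, a core recognised by the insulator protein BEAF-32 that is contained in TATCGATA, was in 18.5% against 28.7%, and in 20.9% of peaks away from promoters. In windows of the same length before all annotated starts these 3 words were also less frequent at non-coding than at coding genes, with 1.15%, 0.896% and 26.2% against 6.21%, 2.83% and 36.6%. TATAAA was in 38.8% of non-coding and 36% of coding windows, AAATAT in 50.6% and 49.7%, CAGTG in 42.7% and 39.1%, and GAGAG in 21.9% and 25%. AAATAT before annotated starts was found in 37.5% and 39.6%. CAGCTG was in 5.06% of the windows and 8.92% of the coding ones. GTTCGANTC and TGGCNNAGT, words taken for the cores of the B and A boxes inside tRNA genes, were in 1.12% and 2.81% against 1.06% and 1.98%. At tRNA, miRNA, snoRNA and snRNA peaks they were in 5.56% and 2.78% of windows. Windows at tRNA genes were not counted apart, and a box that differs from these words by a base is missed, so the shares do not tell how many tRNA windows hold the boxes. No test was made over windows, and a match is a description and not a site of binding.

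Among the 14 pairs of these peaks within 2000 bp of each other, 5 were over 250 bp apart. Besides those of CR44619, lncRNA:CR44867 and lncRNA:CR44868 lay 867 bp apart with signals of 706 and 303, and lncRNA:CR45352 and lncRNA:CR31840 1782 bp apart with 517 and 700. The summits of lncRNA:CR45251 lay 684 bp apart with 523 and 419. These 4 pairs were all high in the list, and the last, at lncRNA:CR43130, was not (87.5 and 8.51). Its record at 8.51 is also among the 11 with a stronger record within 250 bp, so it may not be a separate peak.

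By chromosome arm, 53 of the 178 peaks (29.8%) lay on 2R, against 18.2% of all main peaks and 21.3% of non-coding genes. For tRNA it was 12 of 19, where 33.8% of tRNA genes lie. The arms 2L, 3L, 3R and X had 40, 24, 35 and 26, and chromosome 4 had 0.

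Between replicates, 174 of the 178 peaks had an overlapping record in the ranked lists of all 3. Across these peaks the signals of replicates 1 and 2, 1 and 3, and 2 and 3 had Spearman coefficients of 0.805, 0.743 and 0.768 (n = 174 peaks, which share libraries and are not replicates). Classified anew in each replicate's own list, peaks at non-coding promoters numbered 127, 96 and 108 of 3404, 2774 and 2716 peaks, or 3.73%, 3.46% and 3.98%. Their median log2 signal was 0.08, 0.08 and 0.15 below that of coding promoter peaks, so the mean difference, non-coding minus coding, was −0.11 ± 0.04 (SD, n = 3, exact p = 0.25), or −0.03 with summits within 250 bp merged. The share of the lists was thus similar in each, while the tRNA peaks among them numbered 5, 2 and 12.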

How the data were processed

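Per the labels, the deposited files are peak lists in dm6 coordinates from ChIP-seq of 3 replicates of fragments of 200 to 800 bp. Which aligner and caller were used is not given in the sources used here. The signal of each peak was deposited by the authors with no stated scale and its values in different lists share no known scale. Classes were compared by differences within each list. The deposited score is scaled from the global IDR, whose −log10 the authors deposited in the ranked lists. The lists keep a global IDR of 0.01 at most. Read totals are not in the lists, so depth is unknown.

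The main list is the authors' conservative list, called on pooled libraries. By identical records its IDR comparison matched replicates 1 and 3. Peaks were kept on 6 arms with 1 record per summit. Coordinates are 1-based. TSSs came from Ensembl BDGP6.54, release 115, without transposable element records, and sequence and synonyms from RefSeq. A tie with a coding TSS went to the coding gene (6 peaks). Overlap meant 1 bp. Python 3.11.15, pandas 2.3.3, numpy 2.4.6 and scipy 1.17.1 were used. The only test was the exact sign-flip test over replicates, and assignment, overlap and word search were tested on simulated data. Nothing in the labels beyond the biological replicate number says how the embryos were collected, so p-values measure the spread between these samples alone. Named genes were those of the 25 strongest peaks, up to 4 of each class, the 2 on each side of the limit and listed genes with a peak. The further tRNA, miRNA and snoRNA records and the primary microRNA transcripts named were chosen after their values were seen. The members and lists were chosen with earlier results of these data known. Alternatives were another IDR limit, list, window, choice of TSS, merging, overlap and replicates left out. The records that the thresholded list leaves out, and transposable element starts, were added as alternatives after seeing the data.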

Additional observations from a re-analysis of the deposited data

How the results depend on the processing

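The results varied were counts, shares, medians and the own-list log2 difference. Only the last could change sign, and it stayed negative in each alternative. At a global IDR of 0.001 there were 97 peaks with a median signal of 178, 63.9% repeated in all own lists and 64.9% upstream, and 2.99% of non-coding genes had a peak. Shares of all peaks and of coding promoter peaks were not taken at this or the other alternatives. Apart from the own-list log2 difference, whether the comparisons made above hold at these settings was therefore not tested. In the list of the pooled libraries the median signal was 103 and the share of genes 7.18%. The main list, with 6.30% of genes, compared replicates 1 and 3 and so already leaves replicate 2 out of the IDR comparison. In the lists without replicate 1 and without replicate 3 in that comparison, the share of genes was 4.67% and 5.07%. A window of 250 bp gave 116 peaks, 26.7% in all own lists, 3.46% of genes and 2.22% of the own lists, and a window of 1000 bp gave 11% of genes and 5.41% of the own lists. With the outermost start of each gene, 17.5% had a coding TSS within 500 bp, and without such peaks the share is 0 by construction. At 50% reciprocal overlap 24.2% were in all own lists. Within 50 bp of summits TATAAA was in 20.2%, CAGCTG in 1.12%, GAGAG in 9.55%, CGATA in 10.1%, AAATAT in 34.8% and CAGTG in 16.9%, as a shorter window must hold fewer. Leaving out each replicate in turn gave 37.6% to 42.7% in the remaining own lists, an own-list share of 3.6% to 3.85% and a log2 difference of −0.12 to −0.08, which was −0.03 with merged summits and −0.18 with a window of 250 bp. Adding back the left-out records gave 189 peaks, and counting transposable element starts 219. No paired analysis was possible because there was 1 group. Depth is unknown and limits the weak peaks.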
